A study of Mus musculus with 2 samples.

Results

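The 10 genes described here control the passage of cells from G1 into S phase: the D cyclins Ccnd1, Ccnd2 and Ccnd3, the E cyclins Ccne1 and Ccne2, the Cdk inhibitors Cdkn1b, Cdkn2a and Cdkn2b, the transcription factor E2f1 and the retinoblastoma gene Rb1. They were chosen by name, all 10 were found among the 37172 genes of the deposited expression table, and each was compared between cells of collagen and Matrigel organoids, in all cells and in cells with a count of Mki67, the gene of the Ki-67 protein of cycling cells. Collagen organoids were cystic spheres grown in type I collagen, under medium with EGF (50 ng/mL), Noggin (100 ng/mL) and R-spondin1 (400 ng/mL) that also held bovine serum albumin (1%), nicotinamide (10 mM) and Wnt3a (100 ng/mL). Matrigel organoids were budding structures grown in a basement membrane extract under the medium without those additions. Both came from crypts of the proximal small intestine of C57BL/6 wild-type mice, whose number and age are not given in the sources used here. On day 4, collagenase (0.5 mg/mL) released the collagen organoids and a recovery solution released the Matrigel organoids. All cells were then dispersed with a trypsin-like enzyme, tagged by culture through an EpCAM antibody and pooled into 1 library. Matrix, medium and release therefore differed together.

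Entry into S phase is a decision between activators and brakes. D cyclins, which respond to growth factors and Wnt signals, pair with Cdk4 and Cdk6 and begin to phosphorylate the retinoblastoma protein, which otherwise holds E2F factors inactive. Released E2F factors switch on the E cyclins, DNA replication genes and E2F1 itself, and cyclin E with Cdk2 completes the step. The Ink4 proteins p15 (from Cdkn2b) and p16 (from Cdkn2a) block Cdk4 and Cdk6, p27 (from Cdkn1b) blocks mainly cyclin E with Cdk2, and p19Arf, a second product of Cdkn2a from its own first exon, stabilises p53 by restraining Mdm2. In the intestine, crypt progenitors cycle fast and cells leave the cycle as they move to the villus.

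The 2 Ink4 genes stood out in the comparison that follows, and they are neighbours, so the stretches before their starts are shown. Of the 10 genes, 6 matched the RefSeq promoter table (build GRCm38.p6), with 8 starts in all. The 3 starts of the Cdkn2b and Cdkn2a genes lie on the minus strand of chromosome 4. Cdkn2b starts 16413 bases upstream of the upstream Cdkn2a start, where the transcript of p19Arf begins, and the downstream Cdkn2a start, that of p16, lies a further 12427 bases on. The genome build of the expression table was GRCm39, so these positions serve only to place the sequences. The 250 bases before each start are given 5′ to 3′ on the gene's strand, in lower case, with an E2F-type motif in capitals.
Cdkn2b, chr4:89311033-89311282: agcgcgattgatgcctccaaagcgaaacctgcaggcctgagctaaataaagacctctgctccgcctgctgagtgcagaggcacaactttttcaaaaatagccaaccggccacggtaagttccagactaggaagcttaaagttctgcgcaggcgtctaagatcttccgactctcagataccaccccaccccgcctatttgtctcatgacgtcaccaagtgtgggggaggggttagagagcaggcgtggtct
Cdkn2a (p19Arf start), chr4:89294620-89294869: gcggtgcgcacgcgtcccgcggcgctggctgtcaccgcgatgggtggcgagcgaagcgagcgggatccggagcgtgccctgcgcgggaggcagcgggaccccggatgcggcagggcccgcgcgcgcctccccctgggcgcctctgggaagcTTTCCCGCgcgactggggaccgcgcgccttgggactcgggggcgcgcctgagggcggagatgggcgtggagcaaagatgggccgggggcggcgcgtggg
Cdkn2a (p16 start), chr4:89282193-89282442: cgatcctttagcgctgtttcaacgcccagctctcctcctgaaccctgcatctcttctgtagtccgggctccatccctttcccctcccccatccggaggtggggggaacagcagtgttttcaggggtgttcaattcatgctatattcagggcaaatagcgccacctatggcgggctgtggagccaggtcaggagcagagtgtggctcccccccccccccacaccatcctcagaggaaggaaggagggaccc
The search covered TTTCCCGC, TTTGGCGC, TTTCGCGC and TTTGCCGC on both strands, from 250 bases before to 50 bases after each start. It found 1 match among the 8 starts of these genes, TTTCCCGC at position -99 of the p19Arf start, where position -1 is the last base before the start. Only these RefSeq starts were searched, so a gene without a match, E2f1 among them, may hold one elsewhere. Of all 32851 promoters in the table, 744 (2.26%) held such a motif. The deposited Cdkn2a count gives 1 value per cell for both transcripts, so p16 and p19Arf cannot be told apart in what follows.

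After a filter on detected genes and mitochondrial counts, 336 of 336 collagen cells and 1599 of 1615 Matrigel cells remained, all with distinct barcodes. Collagen cells held 42540314 counts (median 124619 per cell) and Matrigel cells 285201649 counts (median 179044 per cell), so the Matrigel values are the more precise and depth differed with culture. The cells carried epithelial labels, and markers of fibroblasts, immune, endothelial, and muscle and neural cells summed to between 0.96 and 8.98 CPM in collagen cells and between 1.03 and 4.73 CPM in Matrigel cells. Epithelial makeup differed. The 7 stem cell markers, all 7 of them lower in collagen by 2-fold or more, summed to 286 CPM in collagen cells and 2798 CPM in Matrigel cells. The 7 markers of regenerative epithelium, 6 of them measured and all 6 higher, summed to 7323 CPM in collagen cells and 215 CPM in Matrigel cells. Of 9 enterocyte markers, 4 were higher and 4 lower in collagen by 2-fold or more. Their part in the differences below was not tested. In a sum over cells, fewer cells with a transcript and less of it per cell cannot be told apart, so shares of cells are given too. With 1 suspension of cells per culture, nothing could be tested across samples, and no difference below has been checked in a replicate. Levels are summed counts scaled to 1000000 per culture (CPM), with exact Poisson intervals at 95% in parentheses that cover counting error only. A log2 ratio sets the collagen level over the Matrigel level, each raised by 1 CPM. A gene counted as 2-fold different when this log2 ratio reached 1 or -1 and the gene reached 5 CPM in either culture.

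Across all cells, collagen organoids had far more Cdkn2a and Cdkn2b RNA and less Ccne1, Ccne2 and E2f1 RNA, while the D cyclins, Cdkn1b and Rb1 stayed within 2-fold. All 10 genes reached 5 CPM. Cdkn2a and Cdkn2b made 2 of 10 genes at least 2-fold higher in collagen cells, where the share over all 10593 genes was 8.21%. Ccne1, Ccne2 and E2f1 made 3 of 10 at least 2-fold lower, where that share was 8.91%. The median log2 ratio was 0.03 over the 10 genes and -0.02 over all genes, with the Ink4 genes and the E2F arm on opposite sides.

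Among the inhibitors, Cdkn2a stood at 19.5 CPM (18.2 to 20.9) in collagen cells and 0.40 CPM (0.33 to 0.48) in Matrigel cells, a log2 ratio of 3.87. On that scale 99.7% of the genes compared lay below it. Cdkn2b stood at 69.0 CPM (66.6 to 71.6) in collagen cells and 10.9 CPM (10.5 to 11.3) in Matrigel cells, a log2 ratio of 2.56. Both were uneven from cell to cell. The lower quartile, median and upper quartile of Cdkn2b per cell were 0, 28.8 and 102 CPM in collagen cells and 0, 0 and 6.67 CPM in Matrigel cells. For Cdkn2a the upper quartile was 13.8 CPM in collagen cells and 0 in Matrigel cells, with a median of 0 in both. The 10% of collagen cells with the most Cdkn2a held 72.9% of its counts. Cdkn1b, the p27 gene, differed little by comparison, at 47.6 CPM (45.6 to 49.7) in collagen cells and 37.3 CPM (36.6 to 37.99) in Matrigel cells, a log2 ratio of 0.34.

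Of the genes that act at the G1/S border, Ccne1 stood at 3.57 CPM (3.03 to 4.19) in collagen cells and 14.3 CPM (13.9 to 14.7) in Matrigel cells, a log2 ratio of -1.74. Ccne2 stood at 4.98 CPM (4.34 to 5.70) in collagen cells and 11.5 CPM (11.1 to 11.9) in Matrigel cells (-1.06). E2f1, a target of its own protein as well as an activator, stood at 9.16 CPM (8.28 to 10.1) in collagen cells and 25.2 CPM (24.7 to 25.8) in Matrigel cells (-1.37). The median per cell was 0 in both cultures for Ccne1 and Ccne2, and for E2f1 it was 0 CPM in collagen cells and 9.62 CPM in Matrigel cells. The top collagen cell for each gene held 16.4% of all Ccne1 counts, 15.1% of Ccne2 counts and 13.1% of E2f1 counts in that culture. In Matrigel cells no cell held more than 1.15% of any of them. Depth moved with these 3 genes. When each culture was split into 3 equal groups by depth, the deep collagen group (112 cells, median 174548 counts) was near in depth to the middle Matrigel group (533 cells, median 179044 counts). Between these, Ccne1 stood at 5.68 CPM in collagen and 11.3 CPM in Matrigel cells, and E2f1 at 11.97 CPM in collagen and 21.8 CPM in Matrigel cells. Ccne2 stood at 8.19 CPM in collagen and 9.72 CPM in Matrigel cells. The middle collagen group (median 124619 counts) was near in depth to the shallow Matrigel group (median 116100 counts), and here the gaps were larger. Ccne1 stood at 1.00 CPM in collagen and 7.70 CPM in Matrigel cells of this pair, Ccne2 at 1.57 CPM in collagen and 6.60 CPM in Matrigel cells, and E2f1 at 6.71 CPM in collagen and 16.5 CPM in Matrigel cells. All 3 were lower in collagen in both pairs, by amounts that differed between the pairs. The part of depth in these gaps was not tested.

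The D cyclins did not move as a block. Ccnd1, a Wnt-responsive D cyclin, stood at 233 CPM (228 to 237) in collagen cells and 347 CPM (345 to 349) in Matrigel cells, a log2 ratio of -0.57. Ccnd2 stood at 425 CPM (419 to 432) in collagen cells and 449 CPM (447 to 452) in Matrigel cells (-0.08). Ccnd3 stood at 37.1 CPM (35.3 to 39.0) in collagen cells and 33.6 CPM (32.9 to 34.3) in Matrigel cells (0.14). The summed levels hide a difference in spread. Quartiles of Ccnd1 per cell were 0, 77.2 and 284 CPM in collagen cells and 196, 317 and 440 CPM in Matrigel cells, and the top 10% of cells held 52.9% of its counts in collagen and 24.6% in Matrigel. For Ccnd2 these shares were 45.2% in collagen and 25.3% in Matrigel. Rb1 stood at 22.4 CPM (21.0 to 23.8) in collagen cells and 13.5 CPM (13.1 to 13.9) in Matrigel cells (0.69). Of the Rb1 values above 0, 34.6% were fractional, more than for any other gene of the 10, and the Rb1 log2 ratio was 0.80 with whole-number values only.

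**Figure D1:**
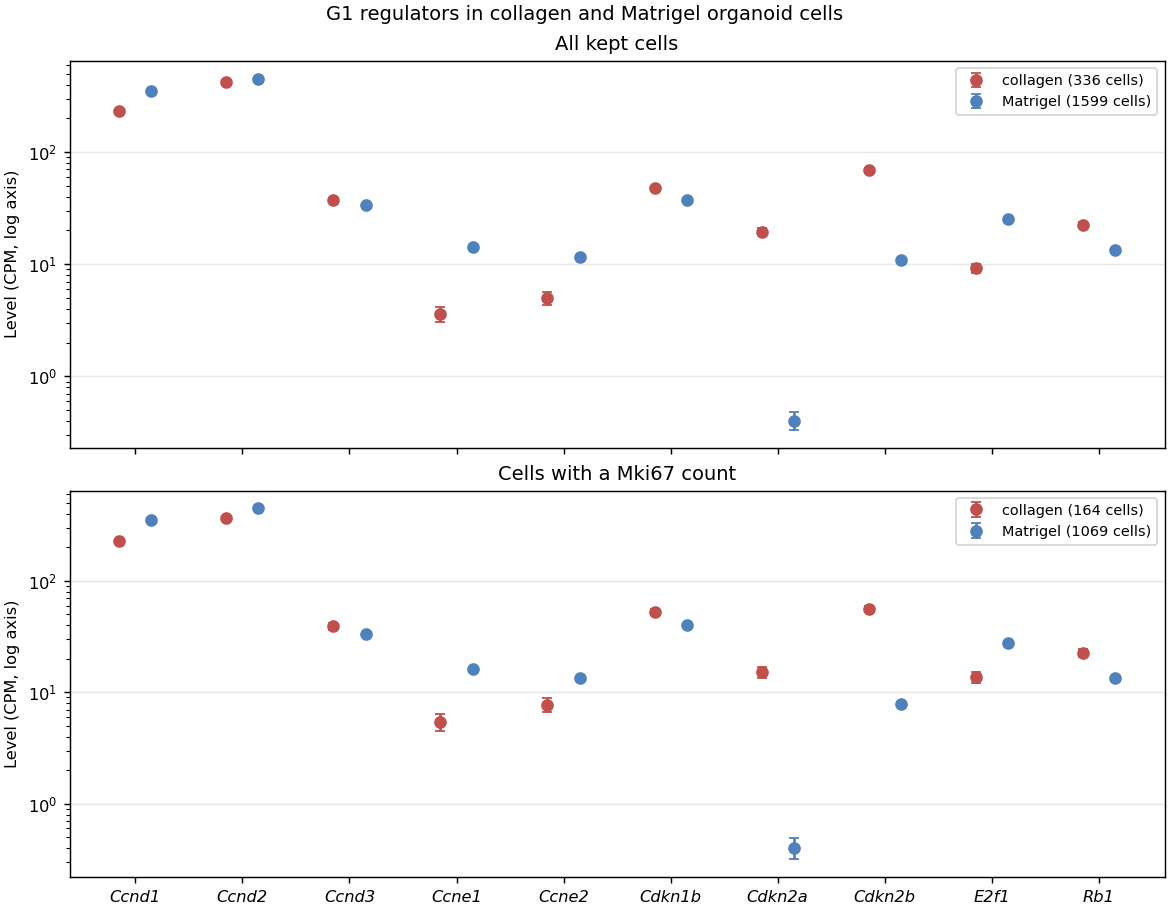
Level of each of the 10 genes (CPM, log axis) in collagen cells (red) and Matrigel cells (blue), for all cells above and for cells with a Mki67 count below; bars are exact 95% Poisson intervals. Cdkn2a lies at 19.5 CPM in collagen and 0.40 CPM in Matrigel cells, and Ccne1, Ccne2 and E2f1 lie lower in collagen cells in both panels.

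To count cells at equal depth, 77972 counts were drawn at random from each cell that had as many (264 collagen and 1477 Matrigel cells). Beside these, shares are given for 56 thinned Matrigel cells of an enterocyte-like cluster, described below (median 204077 counts before thinning). These cells are few, belong to the Matrigel culture and are not known to lack the 10 genes, so they set no firm level for free RNA. Cdkn2a was detected in 25.8% of collagen cells (20.6% to 31.5%, exact binomial interval) and 2.78% of Matrigel cells (2.00% to 3.75%). The unthinned shares were 30.7% of collagen cells and 5.57% of Matrigel cells. The enterocyte-like share was 5.36% (1.12% to 14.9%). Whether the few Matrigel counts of Cdkn2a came from free RNA was not tested. Cdkn2b was detected in 69.7% of collagen cells and 23.6% of Matrigel cells after thinning, and in 63.7% of collagen cells and 30.5% of Matrigel cells before it. Of the enterocyte-like cells 96.4% had a Cdkn2b count.

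The E cyclins and E2f1 were found in fewer collagen than Matrigel cells. Ccne1 was detected in 9.47% of collagen cells and 35.1% of Matrigel cells after thinning, and in 8.93% of collagen cells and 42.7% of Matrigel cells before it. Its collagen interval, 6.22% to 13.7%, lies within that of the enterocyte-like cells, of which 7.14% had a count (1.98% to 17.3%). Ccne2 was detected in 9.09% of collagen cells (5.91% to 13.2%) and 32.97% of Matrigel cells after thinning, beside 7.14% of the enterocyte-like cells (1.98% to 17.3%), and in 10.4% of collagen cells and 41.2% of Matrigel cells before it. E2f1 was detected in 22.0% of collagen cells (17.1% to 27.5%) and 52.3% of Matrigel cells after thinning, beside 10.7% of the enterocyte-like cells (4.03% to 21.9%). For all 3 genes the collagen and enterocyte-like intervals overlapped. Before thinning E2f1 was found in 26.2% of collagen cells and 58.8% of Matrigel cells.

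Among the other 5 genes, Ccnd1 and Rb1 differed most in their thinned shares. Ccnd1 was detected in 76.1% of collagen cells (70.5% to 81.1%) and 98.2% of Matrigel cells, beside 78.6% of the enterocyte-like cells, so collagen cells without it were common. Rb1 was detected in 59.8% of collagen cells (53.7% to 65.8%) and 44.6% of Matrigel cells. Ccnd2 was detected in 94.3% of collagen cells and 99.3% of Matrigel cells, Ccnd3 in 78.0% of collagen cells and 76.2% of Matrigel cells, and Cdkn1b in 78.4% of collagen cells and 77.6% of Matrigel cells. Before thinning the collagen shares of these 5 genes ran from 68.2% (Rb1) to 94.3% (Ccnd2) and the Matrigel shares from 66.4% (Rb1) to 98.9% (Ccnd2).

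**Figure D2:**
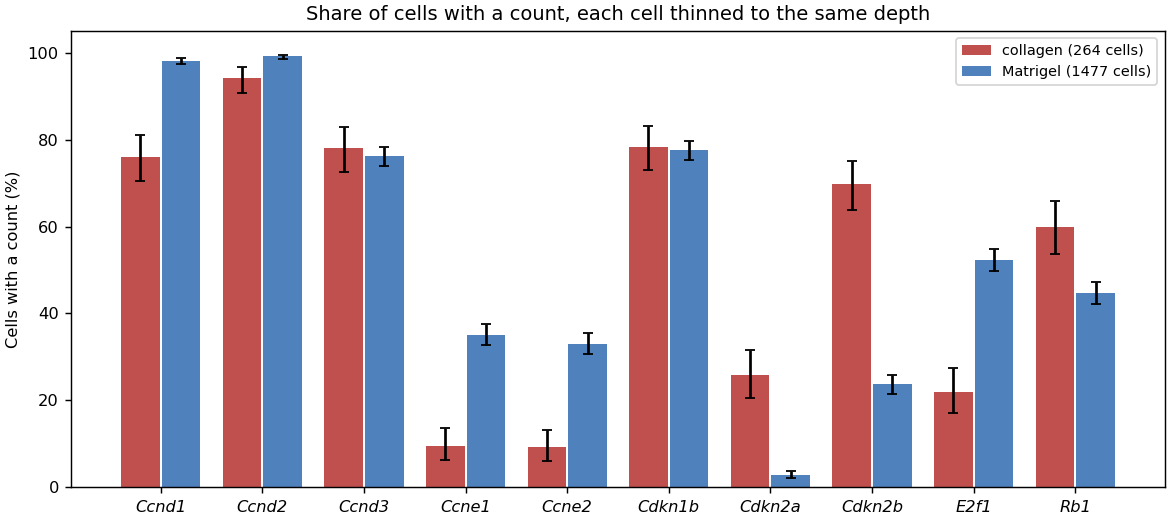
Share of cells with a count of each gene (percent) after thinning each cell to 77972 counts, in 264 collagen cells (red, left) and 1477 Matrigel cells (blue, right); bars are exact 95% binomial intervals. Ccnd1 was detected in 76.1% of collagen and 98.2% of Matrigel cells, and Cdkn2b in 69.7% of collagen and 23.6% of Matrigel cells.

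A Mki67 count was found in 164 of 336 collagen cells and 1069 of 1599 Matrigel cells. In collagen, cells with Mki67 had a median of 138396 counts and cells without it 113481. In Matrigel, cells with Mki67 had a median of 189540 counts and cells without it 155227. After thinning, 50.4% of collagen cells and 59.5% of Matrigel cells had a Mki67 count, and 25% of the enterocyte-like cells did too, so the count is not a call of cycling. In the cells with Mki67, Cdkn2a and Cdkn2b again made 2 of 10 genes at least 2-fold higher in collagen, where 7.83% of all 10610 genes were, and Ccne1 alone was at least 2-fold lower, where 6.7% of genes were.

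Cdkn2a stood at 15.1 CPM (13.5 to 16.7) in collagen and 0.40 CPM (0.32 to 0.50) in Matrigel cells with Mki67, a log2 ratio of 3.52. Cdkn2b stood at 56.2 CPM (53.2 to 59.3) in collagen and 7.81 CPM (7.43 to 8.21) in Matrigel cells with Mki67 (2.697). After thinning, 51.5% of 68 collagen cells with Cdkn2a had a Mki67 count, and 50.0% of those without Cdkn2a did. Thinning left out 72 collagen cells, and cluster 9, described below and rich in Cdkn2a, had a median depth (45571 counts) under the 77972 drawn. Over all collagen cells, Cdkn2a was lower with Mki67 (15.1 CPM) than without it (24.9 CPM, 22.7 to 27.3), a log2 ratio of -0.69. Ccne1 stood at 5.42 CPM (4.52 to 6.45) in collagen and 16.2 CPM (15.6 to 16.8) in Matrigel cells with Mki67 (-1.42). E2f1 stood at 13.6 CPM (12.2 to 15.2) in collagen and 27.6 CPM (26.9 to 28.4) in Matrigel (-0.97), and Ccne2 at 7.77 CPM (6.68 to 8.98) in collagen and 13.5 CPM (13.0 to 13.97) in Matrigel (-0.72). E2f1 thus lay close to the 2-fold line and was past it under 10 of 20 other settings. The 5 other genes had log2 ratios between -0.61 (Ccnd1) and 0.71 (Rb1).

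In the cells without a Mki67 count the E2F arm was further apart. These cells also differed between the cultures in their S phase genes, as given below. Ccne1 stood at 1.31 CPM (0.85 to 1.93) in collagen and 9.62 CPM (8.96 to 10.3) in Matrigel cells, Ccne2 at 1.57 CPM (1.06 to 2.24) in collagen and 6.66 CPM (6.11 to 7.24) in Matrigel, and E2f1 at 3.72 CPM (2.90 to 4.69) in collagen and 19.3 CPM (18.4 to 20.3) in Matrigel. These made 3 of 10 genes at least 2-fold lower (13.6% of all genes), and Cdkn2a and Cdkn2b made 2 of 10 at least 2-fold higher (8.43%). Within collagen, cells with Mki67 had at least 2-fold more Ccne1, Ccne2 and E2f1 than cells without it (3 of 10 genes, against 5.48% of all genes; log2 ratios 1.48, 1.77 and 1.63) and none of the 10 was at least 2-fold lower (1.45%). Within Matrigel, no gene of the 9 that reached 5 CPM was at least 2-fold higher in cells with Mki67 (1.26% of all genes), and Cdkn2b was at least 2-fold lower (1.35%), with a log2 ratio of -1.14.

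Cells were also ordered by the summed level of 30 S phase genes, none of them among the 10, and split by cuts common to both cultures (1086 and 2440.4 CPM) into ranges with equal numbers of cells overall. The ranges are parts of a score, not phases, and from the low to the high range 7, 12 and 4 collagen cells and 53, 126 and 68 Matrigel cells lay within 10% of a cut. Collagen cells fell mostly in the low range, with 273 (81.2%) there, 42 (12.5%) in the middle and 21 (6.25%) in the high range. Matrigel cells were spread out, with 372 (23.3%) in the low, 603 (37.7%) in the middle and 624 (39.0%) in the high range. Even among cells with Mki67, 69.5% of collagen cells and 16.3% of Matrigel cells were in the low range. Among cells without it, 92.4% of collagen cells and 37.4% of Matrigel cells were in the low range. The high range held 0.58% of these collagen cells and 25.3% of these Matrigel cells. The collagen cells of the middle range had high G2/M gene sums, with a median of 1685 CPM against 501 CPM in Matrigel cells of that range, so a common S range did not match the cultures for the other cell cycle genes.

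Within the high range Ccne1, Ccne2 and E2f1 were not lower in collagen. E2F factors switch on DNA replication genes as well as these genes, so the S phase sum is not independent of them. Cells alike in this sum were thus partly matched for the E2F arm, and like levels there are no separate result. Ccne1 stood at 29.4 CPM (24.4 to 35.1) in collagen and 25.03 CPM (24.2 to 25.9) in Matrigel cells of the high range. E2f1 stood at 55.6 CPM (48.7 to 63.3) in collagen and 45.2 CPM (44.0 to 46.4) in Matrigel cells. Ccne2 stood at 38.9 CPM (33.2 to 45.4) in collagen and 19.96 CPM (19.2 to 20.7) in Matrigel cells, a log2 ratio of 0.93. These are 21 collagen cells, and the top cell for each gene held 20.3% of the Ccne1, 19.6% of the Ccne2 and 21.9% of the E2f1 counts. Without the top cell of each gene the log2 ratios were 0.16 for Ccne1, 0.88 for Ccne2 and 0.21 for E2f1. In the middle range Ccne1 stood at 2.50 CPM (1.37 to 4.199) in collagen and 7.83 CPM (7.30 to 8.39) in Matrigel cells, and it was the only gene of the 10 at least 2-fold lower there (5.59% of all genes). A single cell held 50.0% of those collagen Ccne1 counts, and without it the level was 1.27 CPM. Ccne2 stood at 4.38 CPM in collagen and 6.16 CPM in Matrigel cells of the middle range, and at 2.68 CPM in collagen without the cell that held 40.8% of its counts. In the low range E2f1 stood at 3.45 CPM (2.84 to 4.15) in collagen and 3.03 CPM (2.59 to 3.53) in Matrigel cells, and Ccne1 and Ccne2 were below 2 CPM in both cultures. No gene of the 10 was at least 2-fold lower in collagen in the low range (8.34% of all genes; 7 of 10 reached 5 CPM) or the high range (6.91%).

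The Ink4 genes were higher in collagen in every range. In the low range Cdkn2a stood at 22.5 CPM in collagen and 0.63 CPM in Matrigel cells, in the middle range at 12.9 CPM (10.1 to 16.2) in collagen and 0.34 CPM in Matrigel cells, and in the high range at 5.02 CPM (3.11 to 7.67) in collagen and 0.36 CPM (0.26 to 0.47) in Matrigel cells. A single cell held 42.9% of the Cdkn2a counts of the high-range collagen cells, and without it the level was 3.02 CPM. In the middle range 1 collagen cell held 54.2%, and without it the level was 6.15 CPM. Cdkn2b stood at 83.1 CPM in collagen and 35.9 CPM in Matrigel cells of the low range, at 29.3 CPM in collagen and 5.86 CPM in Matrigel cells of the middle range, and at 12.4 CPM (9.28 to 16.3) in collagen and 4.30 CPM (3.95 to 4.68) in Matrigel cells of the high range. In both cultures Cdkn2b was lower the higher the S phase sum. These made 2 of 10 genes at least 2-fold higher in the low (5.89% of all genes), middle (9.16%) and high range (7.2%).

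High-range cells were then set against low-range cells within each culture. As the S phase sum shares E2F control with the E cyclins and E2f1, their rise with it is no separate result. In collagen, Ccnd1, Ccne1, Ccne2 and E2f1 were at least 2-fold higher in the high range (4 of 10 genes, against 12.5% of all genes), and Cdkn2a and Cdkn2b at least 2-fold lower (2 of 10, against 7.98%). In Matrigel, Ccne1, Ccne2 and E2f1 were at least 2-fold higher (3 of the 9 genes that reached 5 CPM, against 3.95%) and Cdkn2b at least 2-fold lower (1 of 9, against 4.07%). Ccnd1 stood at 194, 282 and 473 CPM in the low, middle and high range of collagen cells, and at 227, 354 and 393 CPM in those of Matrigel cells. Ccnd3 stood at 32.6, 49.7 and 55.6 CPM in collagen and 29.1, 31.4 and 37.2 CPM in Matrigel cells over the same ranges. Cdkn1b (42.5 to 51.8 CPM in collagen and 35.8 to 40.1 CPM in Matrigel) and Rb1 (20.8 to 23.9 CPM in collagen and 11.9 to 14.5 CPM in Matrigel) varied little with the range, and Rb1 was higher in collagen in each of them.

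**Figure D3:**
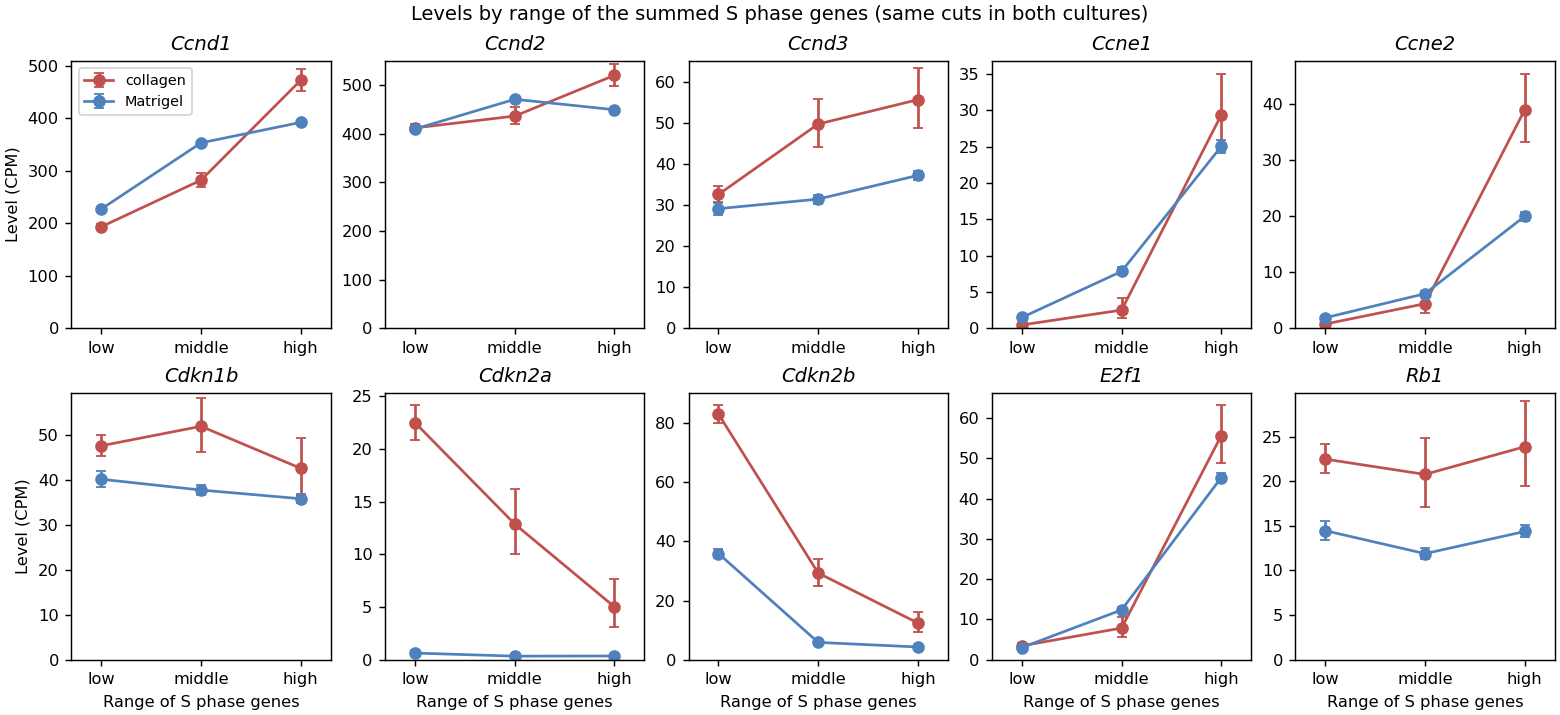
Level of each gene (CPM) in the low, middle and high range of summed S phase genes, for collagen (red; 273, 42 and 21 cells) and Matrigel cells (blue; 372, 603 and 624 cells), with exact 95% Poisson intervals. Ccne1 and E2f1 climb steeply with the range in both cultures, Ccne1 to 29.4 CPM in collagen and 25.03 CPM in Matrigel, E2f1 to 55.6 CPM in collagen and 45.2 CPM in Matrigel, whereas Cdkn2b declines in both.

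Cells were grouped into 9 clusters from variable genes that left out the 10 genes, the other G1/S genes and the cell cycle lists. Cell cycle genes outside those lists were not left out, and some, such as Esco2 and Clspn, lead cluster 3. The clusters are therefore not independent of the cycle. Of the 336 collagen cells, all but 26 (7.74%) lay in 2 of the clusters. Those 26 cells gave 36.3% of the Ccne2, 21.7% of the Ccne1 and 14.1% of the E2f1 counts of the collagen culture, but 0.48% of its Cdkn2a and 1.16% of its Cdkn2b counts, and 8 of them were among the 21 collagen cells of the high S phase range. Cluster 4 (285 collagen cells and 1 Matrigel cell), with Ly6a and Msln among its leading genes, held regenerative markers. In it 6 regenerative and 4 enterocyte markers were at least 2-fold higher than in the cells of all other clusters. Cluster 9 (25 collagen cells and 1 Matrigel cell), led by Ly6d and Sprr1a, was shallow (median 45571 counts) and stays unnamed. By the same measure it had 6 regenerative and 6 enterocyte markers higher. Of the Matrigel clusters, cluster 8 was enterocyte-like, with Sis, Rbp2 and Fabp1 among its leading genes, and the others were unnamed. Cluster 3 was led by Esco2 and histone genes, cluster 1 by Cenpa and Cdc20, and cluster 5 by Edn1 and Olfm4. Cluster 2 was led by Atf5 and Trib3, cluster 7 by goblet, Paneth and enteroendocrine genes together, and cluster 6 was shallow. As the clusters divide by culture, levels across them describe where in each culture a gene was found.

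Cdkn2a and Cdkn2b were highest in different clusters. Cdkn2a was highest in cluster 9 of the collagen cells, at 128 CPM (109 to 148), stood at 17.2 CPM (15.9 to 18.5) in cluster 4, and lay between 0.22 and 1.15 CPM in the Matrigel clusters. Cluster 9 made up 7.44% of collagen cells and gave 20.6% of their Cdkn2a counts, but 0.41% of their Cdkn2b counts. Cdkn2b stood at 8.96 CPM (4.63 to 15.7) in cluster 9 and 75.9 CPM (73.2 to 78.7) in cluster 4. Its highest level of all was in the enterocyte-like Matrigel cells, at 113 CPM (107 to 119), with a count in 95.1% of the 61 cells. Those cells were 3.81% of Matrigel cells and gave 42.5% of their Cdkn2b counts, while the other Matrigel clusters lay between 3.02 and 16.2 CPM. Without them the Cdkn2b log2 ratio over all cells was 3.22. Cdkn2a stood at 0.61 CPM (0.24 to 1.24) in the enterocyte-like cells.

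Cluster 9 also stood apart in Ccnd2, Ccnd1 and Cdkn1b. It rests on 25 collagen cells, and the top cell for each gene held 18.7% of the Cdkn2a, 15.7% of the Ccnd2 and 22.4% of the Ccnd1 counts of the cluster. Ccnd2 stood at 1434 CPM (1370.2 to 1499) in it, against 404 CPM (397 to 410.1) in cluster 4 and between 383 and 569 CPM in the Matrigel clusters, and without cluster 9 the Ccnd2 log2 ratio over all cells was -0.19. Ccnd1 stood at 574 CPM (534 to 615) in cluster 9 and 224 CPM (219.7 to 229) in cluster 4. Cdkn1b was low in cluster 9 at 3.73 CPM (1.21 to 8.71) and no count of Ccne1 or Ccne2 was found there, which allows up to 2.75 CPM of each. Mki67 stood at 0.75 CPM (0.019 to 4.16) in cluster 9 and 63.4 CPM (60.9 to 66.0) in cluster 4. In Matrigel, cluster 3 had the most E2f1 (51.1 CPM, 49.5 to 52.8), Ccne1 (26.8 CPM, 25.6 to 28.0) and Ccne2 (21.9 CPM, 20.8 to 23.0). The enterocyte-like cells had the least E2f1 of the Matrigel clusters (2.49 CPM, 1.67 to 3.58) and the least Ccnd1 (129 CPM, 123 to 136). Cluster 4 of the collagen cells, with 8.69 CPM of E2f1 (7.78 to 9.68), lay between the enterocyte-like cells and the other Matrigel clusters. Median depth ranged from 43750 counts (cluster 6) to 211657 counts (cluster 3), and its part in these levels was not tested.

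**Figure D4:**
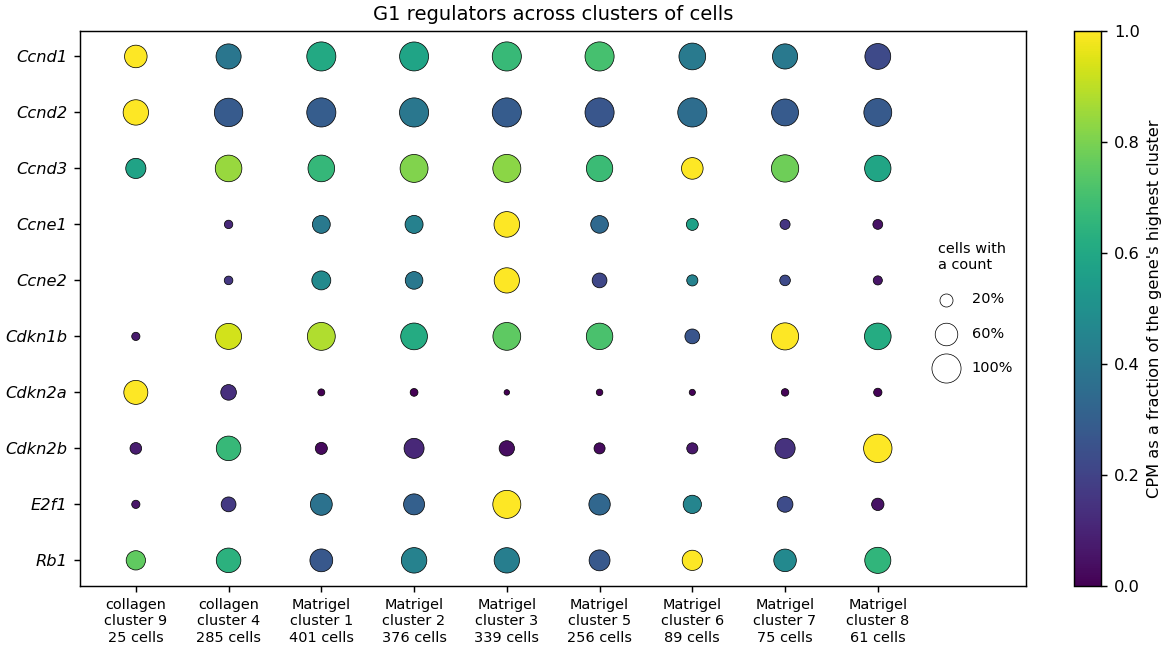
The 10 genes (rows) in 9 clusters of cells (columns, collagen clusters left); colour is the CPM as a fraction of the gene's highest cluster and circle area the share of cells with a count. Cdkn2a peaks in collagen cluster 9 (128 CPM), Cdkn2b in the enterocyte-like Matrigel cluster 8 (113 CPM), and Ccne1, Ccne2 and E2f1 in Matrigel cluster 3.

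Within single thinned cells, some genes of the same arm tended to appear together and others did not. Ccnd3 had a count in 76.6% of collagen cells with Ccnd1 and 82.5% of those without it. Cdkn2a had a count in 25.6% of collagen cells with Cdkn1b and 26.3% of those without it. In collagen, Cdkn2b had a count in 89.7% of the 68 cells with Cdkn2a and 62.8% of those without it. Yet 61 of the 184 collagen cells with Cdkn2b had a Cdkn2a count. In Matrigel, Cdkn2b had a count in 39.0% of the 41 cells with Cdkn2a and 23.2% of those without it. Thinning left out 72 collagen cells, and the median depth of cluster 9 (45571 counts) lay under its cut. That cluster gave 20.6% of the Cdkn2a but 0.41% of the Cdkn2b counts of collagen cells. Cells with Cdkn2a and little Cdkn2b are therefore under-represented here. E2f1 had a count in 68.0% of collagen cells with Ccne1 and 17.2% of those without it, and in 70.8% of those with Ccne2 and 17.1% of those without it. Cdkn2b was less frequent where E2f1 or Ccnd1 was found. E2f1 had a count in 16.3% of collagen cells with Cdkn2b and 35.0% of those without it. Cdkn2b had a count in 64.7% of collagen cells with Ccnd1 and 85.7% of those without it. Spearman correlations of levels over the 264 collagen cells were 0.55 for Ccnd1 with Ccnd2, -0.38 for Cdkn2b with Ccnd2 and -0.30 for Cdkn2b with Ccnd1. Over the 1477 Matrigel cells the values for the same pairs were 0.22, 0.07 and -0.16. The cells share a library and a culture, so these values describe them and nothing more.

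Over all cells of a culture, the genes whose levels ranked most like a given gene's were named where Spearman's rho reached 0.3, among 11300 genes in collagen and 12675 in Matrigel. In collagen, Cdkn2b ranked most like Egln3, which encodes a prolyl hydroxylase of the hypoxia response (rho 0.53 over 336 cells), Ankrd37, a hypoxia-induced gene (0.51), and Ero1a, which encodes an oxidase of disulfide bond formation (0.50). Within cluster 4 alone these values were 0.49, 0.43 and 0.47. All 3 genes were higher in collagen cells: Ero1a stood at 828 CPM in collagen and 168 CPM in Matrigel cells, Ankrd37 at 174 CPM in collagen and 43.9 CPM in Matrigel cells, and Egln3 at 148 CPM in collagen and 40.0 CPM in Matrigel cells. Ccnd1 in collagen ranked most like Ccnd2 (0.58) and the RNA-binding and chromatin protein genes Hnrnpab and Set (both 0.51), and Ccnd2 like Ccnd1, Nme1 (0.46) and Pa2g4 (0.44). In Matrigel, E2f1 ranked most like the replication genes Pcna (0.62), Mcm5 (0.61) and Rpa2 (0.60) over 1599 cells. Ccnd1 there ranked like Mcm5, Mcm3 and Mcm2 (all 0.37), whereas Ccnd2 ranked like Rflnb (0.32) and Psat1 (0.30). Within cluster 1 alone, the largest of Matrigel, rho was 0.51 to 0.57 for the genes most like E2f1. For Ccnd1 it was 0.18 to 0.19 there, and for Ccnd2 0.20 (Rflnb) and 0.29 (Psat1), all under 0.3. Cdkn1b in collagen ranked like H3f3b (0.34), Pnrc2 (0.32) and Pmaip1 (0.31), values of 0.10 to 0.24 after thinning, which leaves no more than a weak relation. No gene reached 0.3 with Ccnd3 in either culture, with Rb1 in collagen or with Cdkn1b in Matrigel. Cdkn2a, Ccne1 and Ccne2 lay under the minimum of 20 CPM for this comparison in both cultures, as did E2f1 in collagen and Cdkn2b and Rb1 in Matrigel. Depth is shared by all these values, and after thinning rho was 0.49 to 0.52 for the 3 genes most like Cdkn2b and 0.53 to 0.57 for those most like E2f1, but 0.28 to 0.31 for the Mcm genes with Ccnd1.

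Several kinase and E2F partners of these genes were lower in collagen as well. For this list and those that follow, 8.91% of all 10593 genes were lower and 8.21% higher by 2-fold or more over all cells. Of 6 genes for G1 kinases and their activators, 3 were lower in collagen by 2-fold or more and 0 higher, with a median log2 ratio of -0.76. They were Cdk4, the main partner of D cyclins (108 CPM in collagen, 283 CPM in Matrigel), its relative Cdk6 (52.4 CPM in collagen, 109 CPM in Matrigel) and Cdk2, the partner of cyclin E (9.57 CPM in collagen, 29.4 CPM in Matrigel). Cdk7, of the Cdk-activating kinase, was within 2-fold at 27.1 CPM in collagen and 38.1 CPM in Matrigel. Of 9 other E2F and DP genes, 4 were lower by 2-fold or more and 0 higher (median -0.69). Among these, the activator E2f3 stood at 8.39 CPM in collagen and 21.7 CPM in Matrigel cells, the repressor E2f8 at 5.90 CPM in collagen and 14.6 CPM in Matrigel cells, and Tfdp1, which encodes the DP1 partner of E2F proteins, at 35.7 CPM in collagen and 89.0 CPM in Matrigel cells. The repressor gene E2f6 was within 2-fold, at 12.9 CPM in collagen and 21.4 CPM in Matrigel cells.

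The other Cdk inhibitors were mixed: of 4, collagen cells had 2 higher and 1 lower by 2-fold or more (median 1.20). Cdkn1a, the p21 gene and a p53 target, stood at 314 CPM in collagen and 78.3 CPM in Matrigel cells, and Cdkn2d, the p19Ink4d gene, at 8.33 CPM in collagen and 2.53 CPM in Matrigel cells. Cdkn2c, the p18 gene of the Ink4 family, ran the other way at 4.71 CPM in collagen and 11.5 CPM in Matrigel cells. Cdkn1c, the p57 gene, stood at 14.03 CPM in collagen and 6.55 CPM in Matrigel cells, just under the 2-fold line at 0.99. The 4 Ink4 genes thus did not move as a family: Cdkn2a, Cdkn2b and Cdkn2d were higher in collagen and Cdkn2c was lower.

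Of 7 pocket protein and DREAM complex genes, which repress cell cycle genes in resting cells, 2 were lower by 2-fold or more and 0 higher (median -0.56). The first was Rbl1, the p107 gene, at 4.98 CPM in collagen and 13.9 CPM in Matrigel cells. Lin9 was the other, at 4.28 CPM in collagen and 9.67 CPM in Matrigel cells. Rbbp4 (81.4 CPM in collagen, 150.4 CPM in Matrigel), Lin54 (8.14 CPM in collagen, 12.5 CPM in Matrigel) and Lin37 (21.2 CPM in collagen, 12.1 CPM in Matrigel) were within 2-fold. Of 10 genes for the turnover of G1 regulators, 1 was higher and 1 lower by 2-fold or more (median -0.05), near the shares over all genes. Skp2, the ubiquitin ligase subunit that marks p27 for destruction, stood at 5.68 CPM in collagen and 17.9 CPM in Matrigel cells, and Fbxo4, an F-box gene linked to cyclin D1, at 30.5 CPM in collagen and 12.1 CPM in Matrigel cells. Cks1b, the cofactor of Skp2 (54.3 CPM in collagen, 93.5 CPM in Matrigel), and the phosphatase gene Cdc25a (39.9 CPM in collagen, 63.3 CPM in Matrigel) were within 2-fold.

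Of 9 measured upstream transcription factors and chromatin repressors, out of 10, 3 were lower by 2-fold or more and 0 higher (median -0.36). Ezh2, the Polycomb methyltransferase known to keep the Cdkn2a locus silent, stood at 33.7 CPM in collagen and 86.6 CPM in Matrigel cells. Bmi1, a Polycomb repressor of the same locus, stood at 7.66 CPM in collagen and 12.8 CPM in Matrigel cells, within 2-fold. Tbx3, of the same list, ran the other way at 28.9 CPM in collagen and 18.4 CPM in Matrigel cells, also within 2-fold. Any link of these genes to the Cdkn2a level was not tested. Myc, an activator of D cyclin and E2F genes, stood at 32.1 CPM in collagen and 68.2 CPM in Matrigel cells, and Mycl at 7.51 CPM in collagen and 20.2 CPM in Matrigel cells. For scale, 26 of 30 S phase genes were lower in collagen by 2-fold or more (median -1.59). Of 24 measured G2/M genes, 3 (Cenpe, Cenpf and Hmmr) were higher by 2-fold or more and 0 lower (median -0.02). In direction Ccne1, Ccne2 and E2f1 thus lay with the S phase genes, which share E2F control with them, so this is no separate result.

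In cells with a Mki67 count, 4 of these lists held fewer lower genes. Of all 10610 genes, 6.7% were lower and 7.83% higher there by 2-fold or more. Of the S phase genes 19 of 30 were lower in collagen by 2-fold or more (median -1.16), of the other E2F and DP genes 2 of 9 (median -0.51), of the pocket protein and DREAM genes 0 of 7 (median -0.51) and of the other Cdk inhibitors 0 of 4, with 2 of 4 higher (median 1.22). The counts for the G1 kinases (3 of 6 lower, median -0.80), the turnover genes (1 higher and 1 lower of 10) and the upstream factors (3 of 9 lower) were as large as over all cells. Of 25 G2/M genes, 3 were higher and 0 lower (median 0.42).

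**Figure D5:**
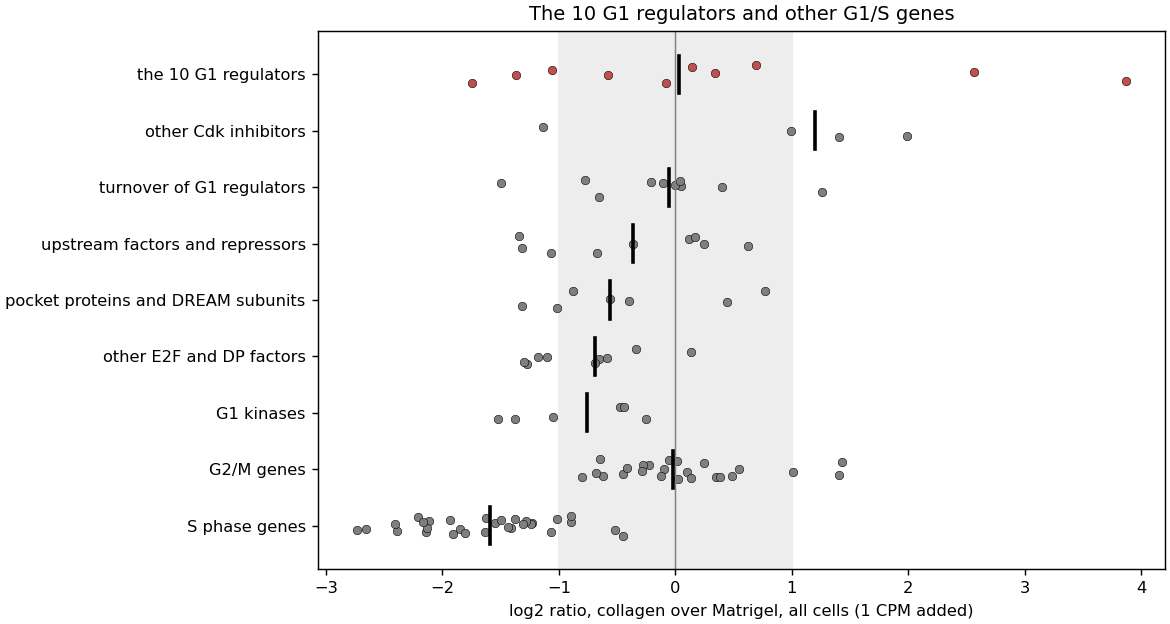
Log2 ratio of collagen over Matrigel, all cells, for each of the 10 genes (red) and the genes of 8 related lists (grey); the black tick is the list's median and the shaded band holds ratios within 2-fold. The 10 genes spread from -1.74 (Ccne1) to 3.87 (Cdkn2a), the S phase genes have a median of -1.59 and the other Cdk inhibitors one of 1.20.

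Beside these lists, 6 of 8 immediate-early genes, which respond to handling as well as growth factors, were lower in collagen by 2-fold or more (median -1.21), with Jun at 142 CPM in collagen and 410.0 CPM in Matrigel cells. Among 11 mitochondrial and nuclear RNA genes that track RNA quality, Malat1 (986 CPM in collagen, 370.2 CPM in Matrigel) and Neat1 (92.7 CPM in collagen, 23.8 CPM in Matrigel) were higher by 2-fold or more and 0 were lower. Their part in the differences of the 10 genes was not tested.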

How the data were processed

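Cells of both cultures were profiled as 1 pooled single-cell library, with a second library for the hashtags that name the culture. As deposited by the authors, the expression table gives each gene an expected count per cell (75.6% of the values above 0 were whole, within 1e-06), and its column names give the culture or a doublet. The tools were STARsolo 2.7.10a, R 4.2.1 and cutadapt 4.1, and the build GRCm39, per the submitters' processing notes. Whether the values are collapsed molecules was not stated there. The second table, also deposited by the authors, gives a count per barcode and hashtag. It served only to redraw the cultures, and 9 of its columns were not used. Cells with under 500 genes or over 30% mitochondrial counts, and 139 named doublets, were left out.

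Counts were summed per culture, scaled to CPM and compared as stated in the text, with no test, under 17 alternatives and 4 more added after the data were seen (python 3.11.15, numpy 2.4.6, scipy 1.17.1, pandas 2.3.3). Clusters came from scanpy 1.11.5 (2000 variable genes, 30 components, 15 neighbours, Leiden resolution 0.5); no doublet caller was run. The summing and thinning steps were tested on simulated data. The 10 genes and all lists were chosen with earlier results of these data known. From each list up to 4 genes reaching 10 CPM were named by size of the log2 ratio. Per gene, the 3 with the highest rho were named. Cdkn2d, Lin9 and Tbx3 fall outside that rule and were named after their values were seen.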

Additional observations from a re-analysis of the deposited data

Results flagged for a closer look

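Some of the 10 genes lay on opposite sides of 0 in different groups of cells under the same contrast of collagen over Matrigel. None of these differences was tested, since each culture was 1 suspension. Ccnd2 had a log2 ratio of -0.28 in cells with a Mki67 count and 0.12 in cells without it. Cluster 9 gave 10.6% of the Ccnd2 counts of collagen cells, and 3.85% of its 26 cells had a Mki67 count. Without that cluster the Ccnd2 log2 ratio over all cells was -0.19. The part of cluster 9 in the change of sign was not tested. Across the ranges of summed S phase genes, Ccnd1 had a log2 ratio of -0.23 in the low, -0.32 in the middle and 0.27 in the high range. Ccne2 had -0.72 in the low and 0.93 in the high range, but in the low range it stood at only 0.75 CPM in collagen and 1.87 CPM in Matrigel cells, under the minimum of 5 CPM, and 1 collagen cell held 44.9% of its counts. Ccnd2 had -0.11 in the middle and 0.21 in the high range, and E2f1 had -0.59 in the middle and 0.29 in the high range. The high range rests on 21 collagen cells and 624 Matrigel cells. Without the collagen cell with the most counts of each gene there, the log2 ratios were 0.22 for Ccnd1, 0.30 for Ccnd2, 0.88 for Ccne2 and 0.21 for E2f1. Without the top collagen cell in the low range they were -0.31 for Ccnd1 and -1.02 for Ccne2, and in the middle range -0.41 for Ccnd1, -0.26 for Ccnd2 and -0.89 for E2f1.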

How the results depend on the processing

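Over all cells, 2 genes were higher and 3 lower in collagen by 2-fold or more, and both counts kept within 1.5 times under 16 of the 17 alternatives set for them. The exception, a minimum of 20 CPM, left 1 higher and 1 lower. In cells with Mki67 the 2 higher genes became 1, and the 1 lower gene 0, at 20 CPM. The count of lower genes was 2 with a pseudocount of 0.1 CPM, with scaling by the median ratio of genes, with totals without mitochondrial and ribosomal protein genes, with the mean over cells, with thinned cells, with cultures set by a hashtag share of 95%, without the deepest 5% of cells, with whole-number values only, and in cells with both Mki67 and Top2a. It was 3 in cells with no Mki67 count. E2f1 was the gene added in each of these, and Ccne2 joined it in the last. Among cells with Mki67, E2f1 ran from -1.15 to -0.81 and kept its side of the 2-fold line in 10 of 20 alternatives. The cause was not tested. Over all cells and alternatives the log2 ratio ran from 2.18 (pseudocount of 5 CPM) to 5.29 (0.1 CPM) for Cdkn2a, 2.22 to 3.22 for Cdkn2b, -1.97 to -1.17 for Ccne1, -1.25 to -0.72 for Ccne2 and -1.55 to -1.09 for E2f1. Ccnd2 ran from -0.19 to 0.03. Of the alternatives, 4 that left out clusters or single cells were added after the data were seen. Intervals cover counting error only, and 21 collagen cells limit the high S phase range. No paired analysis was possible because each culture was 1 suspension within 1 library.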

Other observations

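Cells that the column names give as doublets entered no comparison. The 137 that passed the cell filter (median 160322 counts) had 4.197 CPM of Cdkn2a, 25.1 CPM of Cdkn2b, 8.65 CPM of Ccne1, 8.58 CPM of Ccne2 and 23.1 CPM of E2f1. These 5 levels lay between those of the collagen and Matrigel cells. The D cyclins stood at 282 CPM (Ccnd1), 416 CPM (Ccnd2) and 35.0 CPM (Ccnd3), Cdkn1b at 33.6 CPM and Rb1 at 14.4 CPM.

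In cells with Mki67 and a low S phase sum, 114 in collagen and 174 in Matrigel, Cdkn2b stood at 74.6 CPM in collagen and 28.6 CPM in Matrigel cells, and Cdkn2a at 18.1 CPM in collagen and 0.52 CPM in Matrigel cells. E2f1 stood there at 3.77 CPM in collagen and 3.22 CPM in Matrigel cells. In cells with Mki67 and a high S phase sum, 20 in collagen and 490 in Matrigel, E2f1 stood at 57.5 CPM in collagen and 46.1 CPM in Matrigel cells, and Cdkn2b at 13.0 CPM in collagen and 4.40 CPM in Matrigel cells.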
